A study of Mus musculus with 15 samples.

Results

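Lungs of OVA-challenged Ifit2 mutant mice were set against lungs of OVA-challenged wild-type mice. The members are the 4 challenged mutant and 4 challenged wild-type arrays, 8 of the 15 arrays in the series, taken by genotype and challenge from the sample labels. All mice were C57BL/6 and aged 22 weeks, whole lung was sampled, and each mouse had its own Illumina beadchip array, so that replicates are separate animals. The mutants are labelled homozygous. No label or design text states what kind of mutation it is, or the dose, route and schedule of the ovalbumin (OVA) challenge. The remaining 7 arrays, 3 of unchallenged mutants and 4 of unchallenged wild types, entered the same model and give the values without challenge. Levels are log2 intensities after background correction and quantile normalization, and every difference is mutant minus wild type on that scale. Of 25697 probes, 14396 were detected on at least 3 arrays and were tested with limma, and 13535 of these named 10194 genes. Gene lists were read at each gene's brightest tested probe.

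Interferons are cytokines that bind cell-surface receptors and, through STAT and IRF transcription factors, switch on a large set of interferon-stimulated genes. Ifit2 is one of these genes, and its protein binds RNA and interferes with the translation of viral messages. Inhaled ovalbumin in sensitised mice is a standard model of allergic airway inflammation, in which eosinophils enter the lung, goblet cells fill the airways with mucus and macrophages take on an alternatively activated state. The airway surface beneath that mucus is lined mainly by club cells, which secrete proteins and metabolise foreign compounds, and by multiciliated cells, whose beating cilia carry mucus out of the lung.

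Ifit2 was examined first because it checks the genotype labels. Probe ILMN_2981169 read 5.05, 5.17, 5.20 and 5.98 in the challenged mutants, against 8.13, 8.09, 7.75 and 7.81 in the challenged wild types. Probe ILMN_2981167 read 4.72, 4.79, 4.78 and 4.86 in the mutants, against 7.36, 6.95, 6.45 and 6.73 in the wild types. Neither probe was detected on any challenged mutant array, each was detected in 4 of 4 wild types, and the groups lay far apart. Counted as lower bounds, the first probe was at least 3.97-fold lower and the second at least 1.89-fold lower in mutants, and limma placed both among the 25 called probes (adjusted p = 5.58e-06 and 8.81e-06). An exact permutation test (two-sided) gave 0.0286 for both, its smallest possible p with 4 against 4 arrays. No label states whether these probes fall inside the mutated stretch of the gene.

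The challenged mutant arrays were of somewhat lower brightness on average. Mean signal was 417 ± 73.7 intensity units in mutants and 473 ± 34.2 in wild types (SD, n = 4 each; exact two-sided permutation p = 0.229), and the share of probes detected was 45.0 ± 3.79% in mutants and 47.3 ± 2.21% in wild types (SD, n = 4 each; exact two-sided permutation p = 0.371). Mutant 4 was the dimmest array at 319.9 units and 39.8% detected. Across the 14396 tested probes, Pearson's r was 0.902 to 0.968 among challenged mutants, 0.929 to 0.973 among challenged wild types and 0.919 to 0.977 between them. The arrays thus did not separate by genotype over the tested probes as a whole. The design text describes male mutant mice, whereas both Xist probes were detected on all 15 arrays and the Y-linked genes on at most 2.

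Levels of marker lists for other tissues differed between the 8 lungs, and the source of this RNA was not tested. The mean level of 20 exocrine pancreas genes was 9.75 and 13.90 in mutants 1 and 2 but 5.53 and 5.62 in mutants 3 and 4, against 12.48 and 11.20 in wild types 1 and 2 and 5.88 and 5.74 in wild types 3 and 4. Skeletal muscle genes (16) stood at 5.59 and 5.39 in mutants 1 and 2 and at 10.43 and 10.62 in mutants 3 and 4, against 5.39, 11.31, 10.07 and 11.15 in the wild types. Both lists therefore split the arrays within each genotype. The 12 tested genes of brown and white fat were mostly higher in the mutants, with only wild type 4 reaching into their range, at 10.23, 8.84, 9.00 and 9.60 in mutants against 6.50, 7.89, 8.00 and 9.03 in wild types, and mutant 1 alone carried a high level of 6 thymus genes (10.89, with 7.46 to 8.28 in the other mutants and 7.34 to 7.79 in the wild types).

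**Figure D1:**
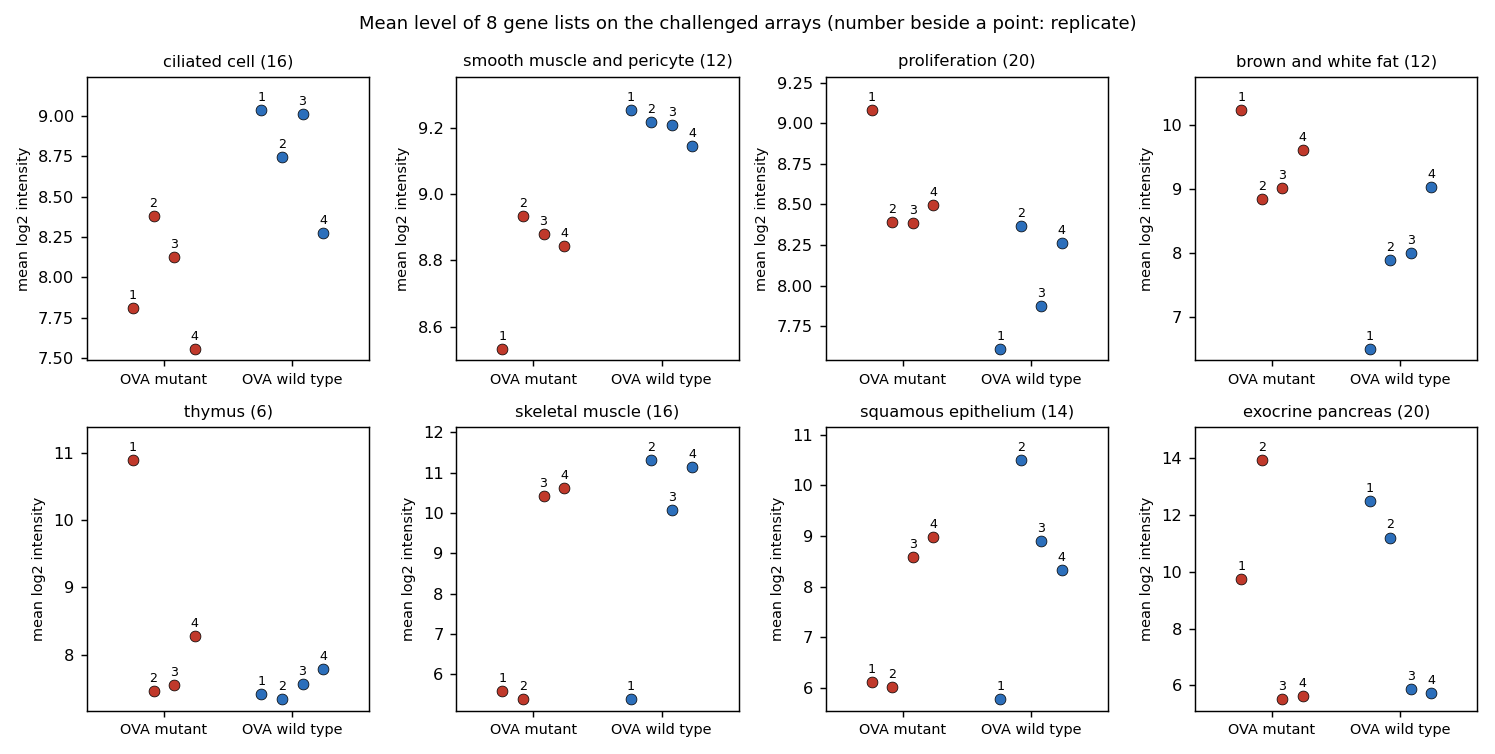
Mean log2 intensity (y axis) of 8 gene lists on each challenged array, mutants left and wild types right, with the replicate number beside each point and the number of tested genes in brackets. Ciliated cell and smooth muscle genes sit lower in the mutants, proliferation and fat genes higher, thymus genes stand out in mutant 1, and skeletal muscle, squamous epithelium and exocrine pancreas genes split the arrays within each genotype.

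Against this background, 25 probes passed an adjusted p of 0.05, which is 0.174% of those tested. Only 4 of them (0.0278%) were higher in mutants and 21 (0.146%) were lower (1 and 72 under median scaling), and at the brightest probe 3 genes (0.0294%) rose and 13 (0.128%) fell. The 25 probes belong to 21 genes, and for all 25 the 4 mutant values lay on one side of the 4 wild-type values. The 4 genes that rose were the interferon-stimulated genes Oas1g and Ifi27l2a and the S-phase genes Ccne2 and Atad5, of which Ccne2 passed the detection filter only through the challenged mutants. The 17 that fell included Ifit2 itself, genes expressed in ciliated cells (Akap14, Mlf1, Pifo and Cfap206), the airway genes Cldn10 and Cbr2, the haptoglobin gene Hp, and the smooth muscle actins Acta2 and Actg2. In limma, 1828 probes had an unadjusted p under 0.05, and per gene the share was 6.16% higher and 6.8% lower in mutants. All mutant arrays lay above all wild-type arrays for 2.21% of genes and below them for 2.19%.

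Few of these calls survived the removal of single arrays. The number of called probes was 7 without mutant 4 or without wild type 3, 8 without mutant 3 or without wild type 2, 10 without mutant 1 and 11 without wild type 1, but 130 without mutant 2 and 192 without wild type 4. In each of these 8 fits 7 probes passed, namely both Ifit2 probes and 1 probe each of Kcnrg, Cldn10, Akap14, Oas1g and Hp. Each of the other 18 calls was lost without at least 1 array. With the fat level of each array as a covariate, an alternative added after the data were seen, only the 2 Ifit2 probes passed. The main fit pools the spread over all 15 arrays. When only the 8 challenged arrays were fitted, again only the 2 Ifit2 probes passed, and with the replicate number as a block 0 probes passed. None of the 25 changed sign under any of the 26 alternatives run.

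**Figure D2:**
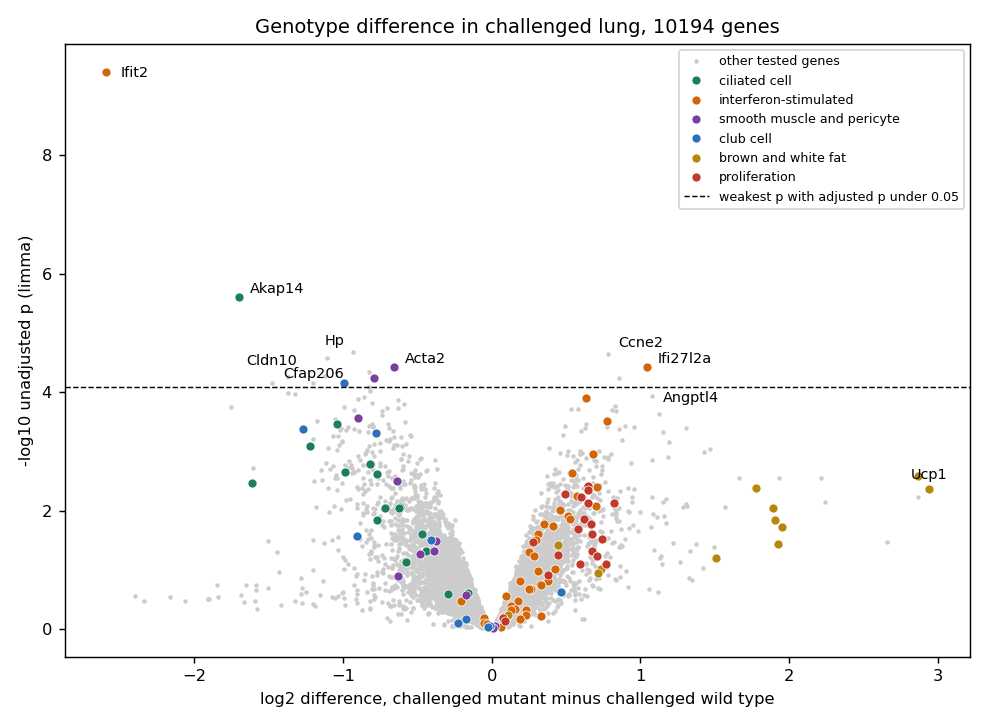
Each point is a tested gene at its brightest probe, with the log2 difference (challenged mutant minus challenged wild type) on the x axis and minus log10 of the unadjusted limma p on the y axis. Ifit2 stands apart at -2.59, ciliated cell genes lie left, interferon-stimulated, proliferation and fat genes lie mostly right, and the dashed line marks the weakest p that still had an adjusted p under 0.05.

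Interferon-stimulated genes other than Ifit2 tended upward in the mutants. Of 45 tested genes of the list, 15 were higher and 1, Ifit2, was lower at an unadjusted p under 0.05, against a background of 6.16% and 6.8%, and 40 of the 45 differences were positive with a median of 0.27 against -0.01 over all genes. Averaged over the list, the level was 8.86, 9.11, 9.02 and 8.99 in mutants and 8.77, 8.67, 8.85 and 8.75 in wild types, so that the lowest mutant lay just above the highest wild type. Under median scaling, which moves the median of all genes to -0.20, the list's median was 0.02 and 4 genes stood higher. A further 12 listed genes on the array, among them Ifit1, Mx1, Oas1a, Oas3 and Xaf1, were detected on too few arrays to be tested.

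Oas1g encodes an oligoadenylate synthetase, one of the enzymes that activate the RNA-degrading RNase L. Its probe ILMN_2628822 read 7.65, 7.71, 7.41 and 8.14 in mutants, against 6.74, 6.56, 6.75 and 6.46 in wild types. All 4 mutants were higher, by 1.10 ± 0.15 on the log2 scale (SE) or 2.14-fold, with a limma adjusted p of 0.00644. The second Oas1g probe gave 0.69 ± 0.17 (adjusted p = 0.106), also without overlap, and since near-identical Oas1 copies lie in the mouse genome, which copy these probes measured is uncertain. Ifi27l2a, a small protein strongly induced by type I interferon, read 12.69, 12.50, 12.32 and 12.23 in mutants, against 11.03, 11.33, 11.38 and 11.82 in wild types. It rose by 1.05 ± 0.18 (2.07-fold, adjusted p = 0.0398), and this call was lost without wild type 1, 2 or 3 or without mutant 1, 3 or 4, with adjusted p-values of 0.0675 to 0.114. With the thymus level as a covariate it was 0.91 (adjusted p = 0.134), and with the fat level 0.67 (adjusted p = 0.463).

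Ifit3, the neighbour and binding partner of Ifit2, read 11.28, 11.59, 11.43 and 11.36 in mutants, against 10.61, 10.97, 10.85 and 10.68 in wild types. The difference of 0.64 ± 0.12 just missed the threshold (adjusted p = 0.0585), although the groups did not overlap. Oasl1, an oligoadenylate synthetase-like protein that restrains translation of Irf7, differed by 0.78 ± 0.16 (adjusted p = 0.0746), with 6.77, 6.98, 7.03 and 7.48 in mutants against 6.32, 6.61, 5.96 and 6.27 in wild types. The nucleic acid sensor Zbp1 differed by 0.54 ± 0.15 and the antiviral GTPase Mx2 by 0.71 ± 0.21, both short of the threshold (adjusted p = 0.139 and 0.167). At the other end of the list, the chemokine genes Cxcl9 and Cxcl10 differed by 0.06 and 0.09 and Ifitm1 by 0.00, and these 3 were named after their values were seen. Members of the list thus ranged widely, and the genes of interferons, receptors and signalling gave little: 2 of 22 tested were higher at an unadjusted p under 0.05 (Stat4 and Tlr7), near the 6.16% of all genes, and none lower, with a median of 0.08.

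Promoters of 37 of the tested interferon-stimulated genes were matched in a RefSeq table (a window around each gene start, build GRCm38.p6). They are shown for Ifit3 and Oas1g because these genes stood higher without overlap and carry the core of the interferon-stimulated response element, searched on both strands as 2 copies of GAAA with any 2 bases between them and a C after the second, and printed in capitals. The Ifit3 window is chr19:34583279-34583578 on the plus strand, with 2 matches, both read from the opposite strand, and the Oas1g window is chr5:120887564-120887863 on the minus strand.
Ifit3: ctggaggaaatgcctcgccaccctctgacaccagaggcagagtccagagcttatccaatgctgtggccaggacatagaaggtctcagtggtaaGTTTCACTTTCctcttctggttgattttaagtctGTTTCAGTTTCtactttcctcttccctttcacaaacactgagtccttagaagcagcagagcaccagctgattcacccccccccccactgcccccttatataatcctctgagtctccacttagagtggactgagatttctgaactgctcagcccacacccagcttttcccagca
Oas1g: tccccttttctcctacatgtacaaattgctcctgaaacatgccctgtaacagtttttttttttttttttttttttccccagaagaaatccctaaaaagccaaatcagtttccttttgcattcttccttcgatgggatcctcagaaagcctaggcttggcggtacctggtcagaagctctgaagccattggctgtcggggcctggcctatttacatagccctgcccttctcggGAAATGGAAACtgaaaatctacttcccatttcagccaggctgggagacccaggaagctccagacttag
The element was found in 14 of the 37 (37.8%), against 0.944% of 27025 genes with a promoter in the table. Genes with a match had a median difference of 0.25 and the 23 without had 0.25, so within the list the match did not go with the size of the difference. Neither window listed for Ifit2 held these letters.

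**Figure D3:**
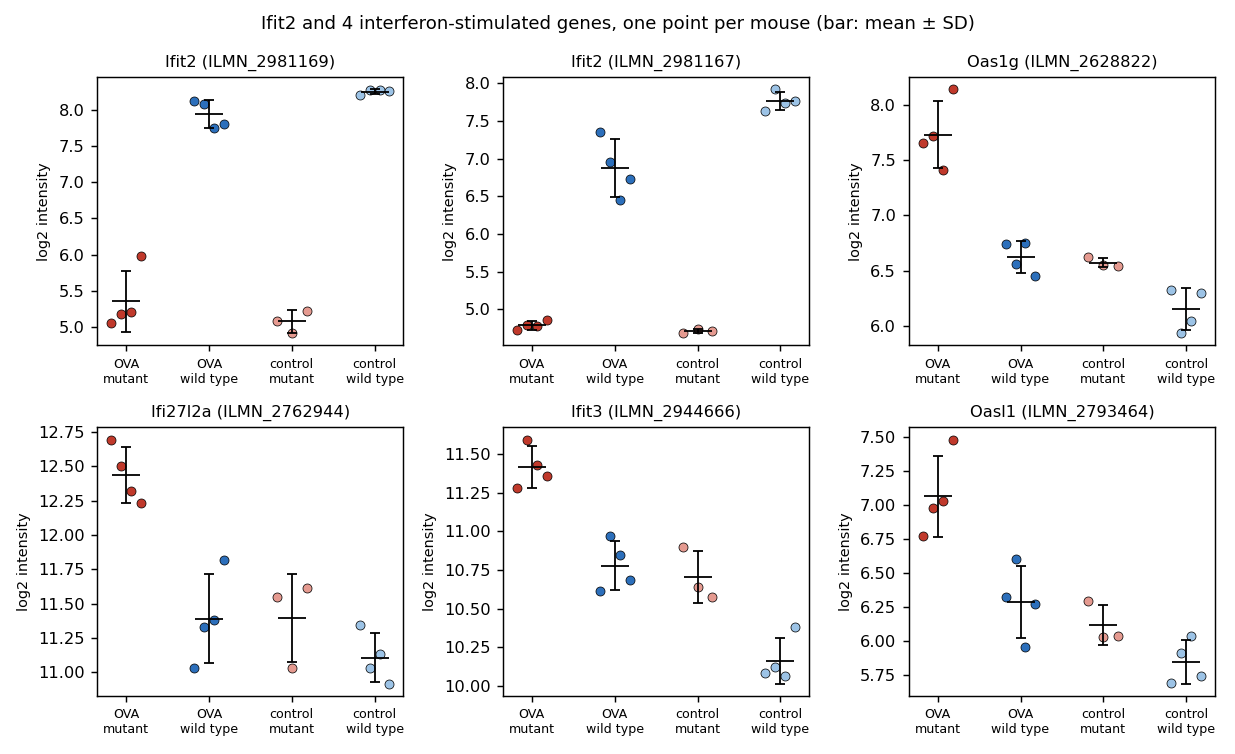
Log2 intensity (y axis) of both Ifit2 probes and of 1 probe each of Oas1g, Ifi27l2a, Ifit3 and Oasl1 in the 4 groups of mice, 1 point per mouse with the mean and SD as bars. In challenged mice Ifit2 lies lower in mutants and the other 4 genes lie higher, with no overlap for any of the 6 probes, and the unchallenged groups are shown beside them.

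Genes of multiciliated cells were lower in the challenged mutants. All 16 tested genes of the list had a negative difference, 13 of them at an unadjusted p under 0.05 against a background of 6.8%, and the median was -0.74. The 16 tested skeletal muscle genes were all negative too (median -1.30), with 0 at an unadjusted p under 0.05. Only Akap14 passed at its brightest probe, and 3 of the 16 had no overlap between groups, against 2.19% of all genes. The level of the list was 7.81, 8.38, 8.12 and 7.56 in mutants and 9.04, 8.75, 9.01 and 8.28 in wild types. Mutant 2, the highest mutant, and wild type 4, the lowest wild type, overlapped. In whole-lung RNA, fewer cells of a type and less RNA per cell cannot be told apart.

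Akap14, an anchoring protein for protein kinase A in the ciliary axoneme, read 5.22, 5.74, 5.18 and 4.68 in mutants, where it was detected on 0 of 4 arrays, against 7.14, 6.82, 7.17 and 6.48 in wild types. The groups did not overlap, and the level was at least 1.93-fold lower in mutants (log2 difference -1.70 ± 0.23, limma adjusted p = 0.00644). Mlf1, which is abundant in ciliated epithelium, read 6.44, 7.04, 7.65 and 7.24 in mutants against 8.10, 8.54, 8.22 and 8.55 in wild types at the called probe, a fall of 1.26 ± 0.22 (SE; adjusted p = 0.0398). Its brighter probe gave -1.04 ± 0.22 (adjusted p = 0.0746). Cfap206, a component of the axoneme's radial spokes, was undetected in mutants at 5.46, 5.63, 5.42 and 5.49, against 7.87, 7.11, 6.94 and 5.99 in wild types. It fell at least 2.03-fold (adjusted p = 0.0424), and wild type 4 again was the lowest of its group.

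Pifo, which acts in disassembly of the primary cilium and is expressed in ciliated cells, fell by 1.20 ± 0.22 on the log2 scale (adjusted p = 0.0424), with 7.31, 8.00, 7.84 and 7.28 in mutants against 9.16, 8.60, 9.25 and 8.22 in wild types. Nek5, a NIMA-related kinase, was detected on 0 of 4 mutant arrays and 4 of 4 wild-type arrays and fell at least 1.35-fold (adjusted p = 0.0352). These called genes lie outside the list apart from Akap14 and Mlf1. Kcnrg, a regulator of potassium channels, read 5.47, 5.39, 5.66 and 5.04 in mutants, detected on 0 of 4, against 6.97, 6.85, 7.35 and 6.37 in wild types, and was at least 1.91-fold lower (adjusted p = 0.00457). Its second, brighter probe gave -0.99 ± 0.26 with overlap (adjusted p = 0.122).

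Other axonemal genes moved the same way without passing. Enkur, a protein of the ciliary microtubule lumen, read 7.31, 7.98, 7.63 and 6.20 in mutants against 8.92, 8.39, 8.58 and 8.12 in wild types (difference -1.22 ± 0.29, adjusted p = 0.0958), and Dnali1, an inner dynein arm chain, differed by -0.82 ± 0.21 (adjusted p = 0.122). Spag6l, of the central pair of microtubules, had a difference of -1.61 ± 0.46 (adjusted p = 0.161) and read 4.78 in mutant 4, against 7.28 to 8.63 in the wild types. Foxj1, the transcription factor that starts the motile cilium programme, read 6.49, 6.72, 5.81 and 5.10 in mutants against 6.48, 6.72, 7.18 and 6.05 in wild types. Mutants 1 and 2 were level with wild types 1 and 2 there, and the difference of -0.58 ± 0.30 had an unadjusted p of 0.0731. Spag6l and Foxj1 were named after their values were seen.

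**Figure D4:**
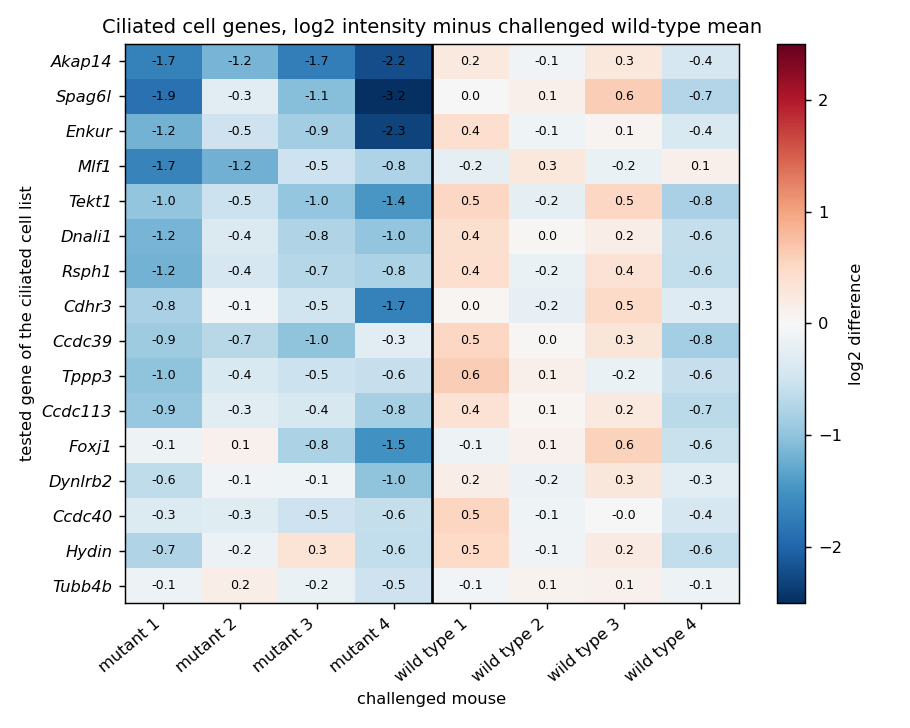
Heat map of the 16 tested ciliated cell genes (rows) on the 8 challenged arrays (columns, mutants left of the black line), coloured and printed as log2 intensity minus the challenged wild-type mean. Nearly all mutant cells are below 0, most deeply in mutants 4 and 1, and wild type 4 is below 0 for nearly all genes too.

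Promoters of 13 of the 16 ciliated cell genes were matched in the same table. Mlf1 and Enkur are shown because they are among the 4 of smallest p and hold GTTGCC, one arm of the X-box bound by RFX factors, searched on both strands and printed in capitals. The windows are chr3:67373847-67374146 on the plus strand for Mlf1 and chr2:21205316-21205615 on the minus strand for Enkur.
Mlf1: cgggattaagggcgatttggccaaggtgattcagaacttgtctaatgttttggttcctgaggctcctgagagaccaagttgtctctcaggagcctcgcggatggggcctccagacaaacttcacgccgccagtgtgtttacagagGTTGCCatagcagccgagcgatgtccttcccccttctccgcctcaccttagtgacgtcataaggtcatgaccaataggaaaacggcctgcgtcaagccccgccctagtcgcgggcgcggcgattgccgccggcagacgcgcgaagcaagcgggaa
Enkur: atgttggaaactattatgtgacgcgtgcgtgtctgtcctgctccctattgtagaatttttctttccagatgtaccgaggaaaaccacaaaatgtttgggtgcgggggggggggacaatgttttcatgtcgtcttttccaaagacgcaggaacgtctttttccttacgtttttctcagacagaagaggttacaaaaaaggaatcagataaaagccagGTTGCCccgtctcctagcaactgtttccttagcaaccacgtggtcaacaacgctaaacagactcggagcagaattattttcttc
GTTGCC was present in 8 of the 13 (61.5%), against 14.1% of genes with a promoter, and in 8 of the 37 interferon-stimulated genes (21.6%). The 8 with a match had a median difference of -0.88 and the 5 without had -0.72. Akap14, with the strongest call of the list, has no match in its window.

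The ciliated count changed when the fat or thymus level was added to the model. The 13 lower ciliated cell genes became 3 with the fat level of each array as a covariate and 8 with the thymus level. They stayed at 10 to 14 with any single challenged array left out. The arrays of lowest ciliated level, mutants 4 and 1, also had the highest fat levels, and wild type 4 had both the lowest ciliated and the highest fat level of its group. Whether fat in the sample and the ciliated difference are linked was not tested beyond these values.

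Some secretory airway genes were lower. Of 11 tested club cell genes 5 were lower and none higher at an unadjusted p under 0.05, against 6.8% and 6.16% of all genes, with a median of -0.23. Cbr2, a carbonyl reductase abundant in club cells, read 12.94, 13.34, 13.39 and 12.72 in mutants against 14.35, 13.86, 14.35 and 13.79 in wild types, a fall of 0.99 ± 0.18 (limma adjusted p = 0.0424). Cyp2f2, the cytochrome P450 that marks club cells, read 11.76, 12.84, 12.93 and 12.55 in mutants against 14.23, 13.56, 14.23 and 13.11 in wild types (difference -1.27 ± 0.28, adjusted p = 0.0746). The groups did not overlap for either gene. Scgb1a1, the main secretory product of the same cells, read 15.41, 15.16, 15.55 and 15.41 in mutants against 15.44, 15.30, 15.44 and 15.41 in wild types. These values lie at the top of the range of the normalized arrays, where a change could hardly show, and the gene was named after they were seen. The count was 3 without mutant 1, without mutant 3, or with the fat or thymus level as a covariate.

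Cldn10, a claudin of epithelial tight junctions, fell on all 3 of its called probes. The clearest, ILMN_2723576, read 6.98, 7.65, 7.12 and 7.37 in mutants against 9.56, 8.66, 8.92 and 8.56 in wild types, which is 3.13-fold lower (log2 difference -1.65 ± 0.21, adjusted p = 0.00586). The other called probes gave -1.19 ± 0.20 and -1.12 ± 0.20. Hp encodes haptoglobin, a plasma protein that binds free haemoglobin and is also made in lung epithelium. Its probe ILMN_2668510 read 10.20, 10.19, 9.63 and 9.63 in mutants against 11.38, 11.07, 11.30 and 10.74 in wild types, 2.32-fold lower without overlap (adjusted p = 0.00674), and a brighter probe fell by 0.93 ± 0.15 (adjusted p = 0.0352). Among 11 tested acute-phase and complement genes Hp was the only one with a negative difference, where 5208 of all 10194 genes were negative. At an unadjusted p under 0.05 Hp was lower and C4b, C2 and Serpina3n were higher (differences of 0.69, 0.45 and 0.50). The shares over all genes were 6.8% lower and 6.16% higher.

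Enzymes of xenobiotic metabolism, many of them made in airway epithelium, were lower in large part. Of 24 tested genes 13 were lower and 2 higher at an unadjusted p under 0.05, against 6.8% and 6.16% of all genes, with a median of -0.40, and 0 passed limma's adjusted threshold. The list shares Cyp2f2, Aldh1a1 and Cyp4b1 with the club cell list, so these 3 of the 13 were already counted there. Gsto1, an omega-class glutathione transferase, read 10.45, 11.24, 10.72 and 10.29 in mutants against 11.31, 11.54, 12.01 and 11.81 in wild types (difference -0.99 ± 0.20, adjusted p = 0.0625). The retinal dehydrogenase Aldh1a1 differed by -0.78 ± 0.17 and the glutathione transferase Gstm1 by -0.66 ± 0.16. Cyp2e1 went the other way, at 1.93 ± 0.54, with 11.29, 9.85, 10.14 and 10.49 in mutants against 7.66, 7.65, 9.55 and 9.18 in wild types (adjusted p = 0.146). It was named after its values were seen. The count of 13 fell to 7 without mutant 1, to 6 with the thymus level and to 4 with the fat level as a covariate.

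**Figure D5:**
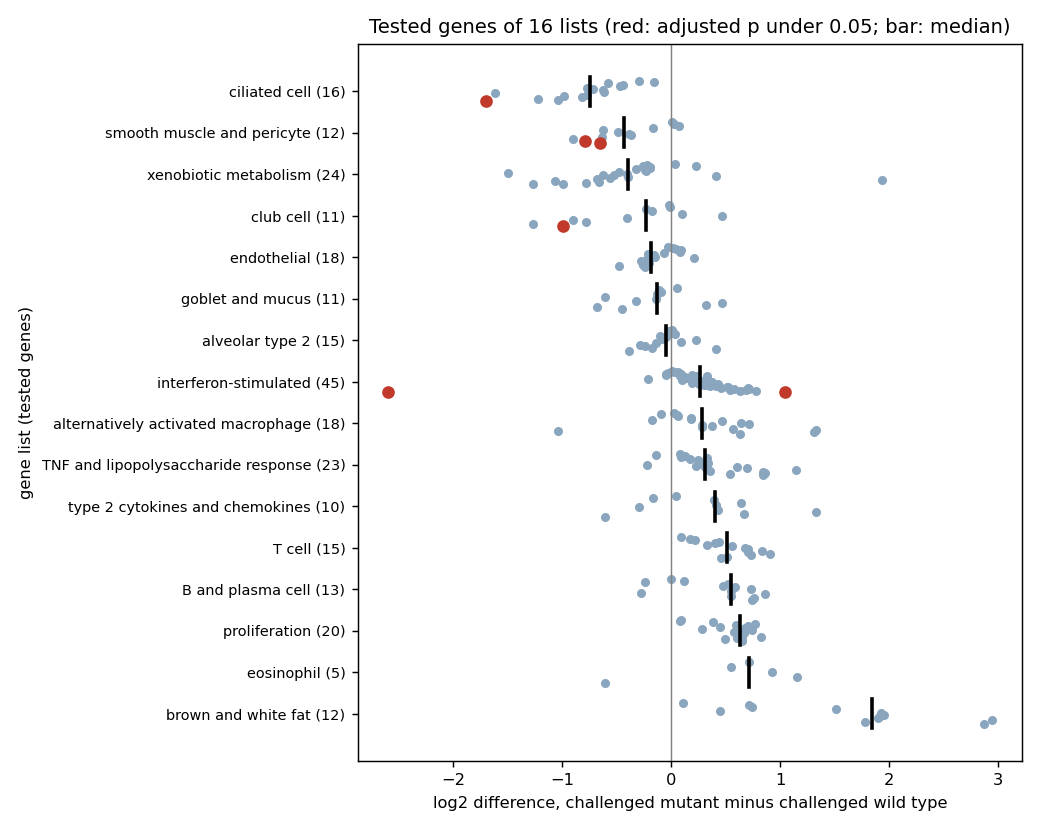
Log2 differences (x axis, challenged mutant minus challenged wild type) of the tested genes of 16 lists, ordered by median, with a black bar at each median and red points for genes with an adjusted p under 0.05. Ciliated, smooth muscle, xenobiotic and club cell genes lie to the left, and proliferation, eosinophil and fat genes to the right, with medians from -0.74 to 1.84. Skeletal muscle genes (median -1.30) and squamous epithelium genes (median -0.76) had lower medians and are not among the 16 lists.

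Contractile genes of smooth muscle were lower. Of 12 tested genes 6 were lower and none higher at an unadjusted p under 0.05, against 6.8% and 6.16% of all genes, with a median of -0.44. The list level was 8.53, 8.93, 8.88 and 8.84 in mutants and 9.25, 9.22, 9.21 and 9.14 in wild types, with no overlap. Acta2, smooth muscle alpha-actin, read 13.19, 13.40, 13.50 and 13.41 in mutants against 14.16, 14.04, 13.98 and 13.95 in wild types, a fall of 0.65 ± 0.11 (adjusted p = 0.0398). A further 3 Acta2 probes gave -0.99, -0.93 and -0.39 and did not pass. Actg2, the gamma isoform, read 10.40, 10.95, 10.89 and 10.78 in mutants against 11.78, 11.56, 11.36 and 11.48 in wild types and fell by 0.79 ± 0.14 (adjusted p = 0.0398). Myh11, the smooth muscle myosin heavy chain, differed by -0.90 ± 0.19 without overlap (adjusted p = 0.0746), and Tagln by -0.64 ± 0.18 with overlap. With the fat level as a covariate the lower genes numbered 4, and Acta2 and Actg2 gave -0.60 and -0.62 with the calls lost (adjusted p = 0.463 and 0.485). The pericyte genes Cox4i2 and Cspg4, named after their values were seen, differed by 0.03 and 0.01.

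Cell-cycle genes were higher in the mutants as a group. Of 20 tested proliferation genes 13 were higher and none lower at an unadjusted p under 0.05, against a background of 6.16%, with a median of 0.63, and none passed the adjusted threshold. The list level was 9.08, 8.39, 8.38 and 8.50 in mutants against 7.61, 8.37, 7.87 and 8.26 in wild types, where mutants 2 and 3 exceeded wild type 2 by little. Mcm5, a subunit of the replicative helicase, read 10.45, 9.96, 10.03 and 10.49 in mutants against 9.30, 9.81, 9.53 and 9.70 in wild types (difference 0.65 ± 0.19, limma adjusted p = 0.165), and its partners Mcm2 and Mcm6 differed by 0.65 and 0.49. Outside the list, Ccne2, the cyclin E2 that drives entry into S phase, was detected on 4 of 4 mutant and 0 of 4 wild-type arrays (5.91, 6.18, 6.16 and 6.47 against 5.50, 5.43, 5.21 and 5.46). Its level was at least 1.31-fold higher (adjusted p = 0.0352). Ccne2 was detected on no other array, so it entered the test only through the group where it is high, and its p lends no support to the list. Atad5, which unloads the PCNA clamp after replication, read 7.59, 6.93, 7.07 and 7.62 in mutants against 6.53, 6.64, 6.29 and 6.33 in wild types and rose by 0.86 ± 0.15 (adjusted p = 0.0398). The DNA ligase gene Lig1 differed by 0.58 ± 0.12 without overlap (adjusted p = 0.0625).

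The proliferation count moved with single arrays. It was 6 without mutant 1, 7 without wild type 1 and 8 without wild type 3, 0 under median scaling or with the fat level as a covariate, and 6 with the thymus level. Mutant 1 also stood highest for the thymus list, where Cd8b1 read 13.06, 9.07, 9.09 and 10.55 in mutants against 9.28, 8.93, 9.12 and 9.37 in wild types. Rag1, which cuts antigen receptor genes in developing lymphocytes and was named after its values were seen, read 10.65 in mutant 1 and 5.17 to 5.38 in the other mutants, against 5.17 to 5.90 in the wild types. The part of the thymus genes in the cell-cycle difference was not tested beyond these fits.

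Fat genes had the largest median of the lists examined, 1.84 over 12 tested genes, of which 8 were higher at an unadjusted p under 0.05, against 6.16% of all genes, and none passed. Ucp1, the uncoupling protein of brown fat, read 10.62, 8.63, 8.88 and 8.85 in mutants against 4.90, 7.56, 4.81 and 7.93 in wild types (difference 2.94 ± 0.87, adjusted p = 0.170). Cidea, a lipid droplet protein, differed by 2.87 ± 0.79 and Adipoq, the fat hormone adiponectin, by 1.95 ± 0.74; Adipoq was named after its values were seen. Ucp1 and Cidea did not overlap between groups, and yet neither passed. The limma spread is pooled over all 4 groups, and Ucp1 ranged from 4.81 to 7.93 within the challenged wild types. The count was 4 without mutant 1 or wild type 1. In the list of fatty acid oxidation and lipid uptake 7 of 17 genes were higher and 1 lower at an unadjusted p under 0.05, against 6.16% and 6.8% of all genes, with Angptl4, a secreted inhibitor of lipoprotein lipase, at 9.32, 9.24, 9.09 and 9.09 in mutants against 8.20, 8.45, 7.37 and 8.42 in wild types (difference 1.08 ± 0.21, adjusted p = 0.0579). That count was 4 without mutant 1 or 4, 12 without wild type 4 and 1 with the fat level as a covariate.

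The effector genes that define the allergic response showed no call by genotype. Of 11 tested goblet and mucus genes none was higher or lower at an unadjusted p under 0.05 (median -0.13). Over all genes the shares were 6.16% and 6.8%, so that none of 11 is near the background. Muc5ac, the gel-forming mucin of goblet cells, read 9.00, 9.63, 9.14 and 7.63 in mutants against 9.79, 9.90, 9.82 and 8.60 in wild types (difference -0.68 ± 0.42, adjusted p = 0.529). Clca1, another goblet cell product, read 13.42, 13.72, 13.98 and 13.29 in mutants against 14.49, 14.49, 14.49 and 13.39 in wild types (difference -0.61 ± 1.01). That SE is limma's, pooled over all 15 arrays, so it also holds the spread within the unchallenged groups. The goblet list level was 8.12, 6.75 and 8.11 in the unchallenged mutants. Of 18 tested genes of alternatively activated macrophages 3 were higher and 1 lower at an unadjusted p under 0.05, against 6.16% and 6.8% of all genes, and 15 had a positive difference. Arg1, arginase 1, read 11.55, 10.67, 10.38 and 10.30 in mutants against 8.11, 10.23, 8.96 and 10.37 in wild types (difference 1.31 ± 0.42, adjusted p = 0.214), with wild types 1 and 3 low. The chitinase-like gene Chil4 leaned the other way (-1.04 ± 0.48), and the abundant markers Retnla and Chil3 differed by -0.09 ± 0.47 and -0.18 ± 0.26, Retnla also at the top of the arrays' range. Clca1, Retnla and Chil3 were named after their values were seen.

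No eosinophil or type 2 gene passed the adjusted threshold. Prg2, the major basic protein of eosinophil granules, read 8.56, 7.47, 7.42 and 8.20 in mutants against 6.09, 6.34, 6.80 and 7.81 in wild types (difference 1.15 ± 0.37, adjusted p = 0.210). Il5ra, the receptor chain for interleukin-5, differed by -0.61 ± 0.19 (adjusted p = 0.208). The eosinophil list had 5 tested genes, 2 higher and 1 lower at an unadjusted p under 0.05 (6.16% and 6.8% of all genes), while Epx, Ccr3, Siglecf, Prg3 and Ear6 were detected on too few arrays. Of 10 tested type 2 genes, which include Il5ra again, 2 were higher and 1 lower at that level. Ccl11 and Ccl24, the eotaxins that attract eosinophils, differed by 0.66 ± 0.28 and 1.33 ± 0.62. Ccl24 read 8.91, 8.49, 7.74 and 6.72 in the mutants, and wild types 1 and 3 were low at 4.81 and 5.69, with 7.99 and 8.05 in the other wild types. The cytokine genes Il4, Il5, Il9 and Il13 were not tested, as each was detected on too few arrays.

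Inflammatory genes of the TNF and lipopolysaccharide response included 5 of 23 that were higher and none lower at an unadjusted p under 0.05, against 6.16% and 6.8% of all genes, with a median of 0.31. Il6 read 6.17, 6.55, 6.63 and 6.66 in mutants against 5.27, 5.98, 5.42 and 5.99 in wild types, without overlap (difference 0.84 ± 0.17, adjusted p = 0.0625). The chemokine genes Ccl3 and Ccl4 differed by 0.86 ± 0.28 and 0.84 ± 0.30. All 16 tested MHC class I genes (median 0.24) and all 11 class II genes (median 0.31) had positive differences, as did 4986 of all 10194 genes. Of these MHC genes 1, the class I gene H2-T10 (0.67 ± 0.25), had an unadjusted p under 0.05, against 6.16% of all genes higher. The class II level was 11.47 in mutant 4 and 10.40 to 10.76 in the other mutants, against 10.21 to 10.66 in the wild types. All 15 tested T cell genes were positive too (median 0.51, 0 at an unadjusted p under 0.05), with Cd3e at 10.43 in mutant 1 and 8.17 to 9.24 in the other mutants, against 8.04 to 8.51 in the wild types. Neutrophil genes (10 tested) had no member at an unadjusted p under 0.05, which is near the 6.16% and 6.8% of all genes.

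Other cells of the lung were read in the same way. Alveolar type 2 genes (15 tested) had a median of -0.05 and endothelial genes (18 tested) a median of -0.18. Neither list had a member at an unadjusted p under 0.05, against 6.16% higher and 6.8% lower over all genes. Of 11 tested alveolar type 1 genes 2 were lower at an unadjusted p under 0.05 (6.8% of all genes) and 10 had a negative difference, led by Emp2 (-0.48 ± 0.14). Of 6 tested mesothelial genes 5 had a positive difference, 3 of them at an unadjusted p under 0.05 (6.16% of all genes), among them Lrrn4 with 8.04, 8.32, 8.28 and 8.03 in mutants against 7.32, 7.62, 7.85 and 7.84 in wild types (difference 0.51 ± 0.15). In the platelet list all 6 differences were negative, and Ppbp, the precursor of several platelet chemokines, differed by -0.81 ± 0.21 without overlap. Mpig6b, an inhibitory receptor of platelets and megakaryocytes that is outside the list, fell by 0.83 ± 0.15 (adjusted p = 0.0480), with 7.46, 7.52, 7.85 and 7.39 in mutants against 8.58, 8.01, 8.44 and 8.48 in wild types.

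Genes that neighbour Ifit2 on chromosome 19 were read separately, because chromosome segments that travel with a mutation can differ between strains. Of 23 tested neighbours, 3 were higher and 1 lower at an unadjusted p under 0.05, against 6.16% and 6.8% of all genes, with a median of 0.04. Acta2, described above with smooth muscle, was the lower one, Ifit3, Pank1 and Stambpl1 were the higher ones, and Pank1, a pantothenate kinase, read 9.09, 8.70, 9.07 and 9.52 in mutants against 8.32, 8.12, 8.42 and 8.73 in wild types (difference 0.70 ± 0.18, adjusted p = 0.116). Lipa, Ch25h and Fas, close to Ifit2 and named after their values were seen, differed by 0.13, 0.13 and -0.10.

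Without challenge fewer genes passed between the same genotypes. In limma 2 probes passed (0.0139%), both of Ifit2, and 375 had an unadjusted p under 0.05, which per gene was 1.36% higher and 1.28% lower. These counts are not on one footing with those under challenge. Only 3 mutants were unchallenged, and limma pools the spread over all 4 groups. The median r of an array with its own group was 0.977 to 0.991 unchallenged and 0.921 to 0.970 challenged. Of the 25 probes called with challenge, 24 had the same sign without it. The same share over all tested probes is not given here, and some of these differences were near 0, such as -0.01 for Actg2 and -0.03 for Cfap206. The interferon-stimulated list had a median of 0.22 there, with 7 genes higher and Ifit2 lower, and Ifit3 differed by 0.54 ± 0.13 without challenge, against 0.64 ± 0.12 with it. Ciliated cell genes had a median of -0.07, with 1 gene higher and none lower. Akap14, for example, stood at 7.76 ± 0.15 in unchallenged mutants (SD, n = 3) and 7.97 ± 0.36 in unchallenged wild types (SD, n = 4), and at 5.20 ± 0.43 in challenged mutants and 6.90 ± 0.32 in challenged wild types (SD, n = 4 each). Smooth muscle genes had a median of -0.01 and proliferation genes a median of 0.38 without challenge. The unchallenged mutants differed among themselves. The level of the alternatively activated macrophage list was 8.33, 7.32 and 8.57 in them, against 7.23 to 7.34 in unchallenged wild types. Of its 18 genes, 8 were higher without challenge at an unadjusted p under 0.05 in limma.

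Whether the genotype difference itself changed with challenge was tested as an interaction, which rests on the same unchallenged arrays. No probe passed (0%), the smallest limma adjusted p was 0.950, and 590 probes had an unadjusted p under 0.05. With cyclic loess normalization 1 probe passed. Per gene, 1.92% had a positive and 2.18% a negative interaction at an unadjusted p under 0.05, compared with 7 of 16 ciliated cell genes, all negative, with a list median of -0.64. Akap14 is among the genes of smallest p, but as it was detected on no challenged mutant array its interaction (-1.49 ± 0.33) is taken against a group at background. Others were Angptl4 (1.34 ± 0.30) and Sfrp2, a secreted modulator of Wnt signalling (1.18 ± 0.24), which read 9.19, 9.11, 9.36 and 9.25 in challenged mutants against 8.05, 8.65, 8.45 and 8.52 in challenged wild types.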

How the data were processed

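Total RNA from whole lung was extracted with Trizol, cleaned on columns and labelled as biotin cRNA, per the labels' protocols. The deposited table holds, per the file headers, a linear signal intensity for each probe and array, not normalized between arrays, made by the authors with GenomeStudio 2011.1 per the submitters' processing notes. It also holds a detection p-value for each probe and array, deposited beside the intensity. A second deposited table of intensity values served as an alternative: its columns are linear, but the authors' centring and method are not stated in it.

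Intensities were background-corrected with neqc (offset 16) and quantile-normalized in limma 3.58.1 (R 4.3.3), and 14396 of 25697 probes with a detection p under 0.05 on at least 3 of 15 arrays were kept. A model with the 4 groups as means was fitted to all 15 arrays (11 residual degrees of freedom), with two-sided moderated tests and Benjamini-Hochberg adjustment over all tested probes. All adjusted p-values in the text are limma's unless another test is named. A probe detected on no array of a group gives a lower-bound fold. The procedure was tested on simulated data. Of the probes, 23978 carried 1 gene symbol in the platform annotation, 0 several and 1719 none. The symbols were checked against RefSeq (GRCm38.p6), where 23962 Entrez IDs matched. Neither labels nor headers name a chip or batch.

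Genes were named by rule: Ifit2; genes passing the threshold without overlap, up to 12 in each direction, filled by smallest p; the 8 of smallest p among interferon-stimulated genes and among neighbours of Ifit2; up to 4 members of each other list; and the 5 of smallest interaction p. The members and lists were chosen with earlier results of these data known. Alternatives covered background correction, normalization, filters, weights, covariates and single arrays left out. The precision is limited by 4 arrays a group.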

Additional observations from a re-analysis of the deposited data

Results flagged for a closer look

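In a group of 4 arrays, a value was picked out where its gap to the nearest of the others, as a share of the group's range, exceeded Dixon's critical value. Of 152 groups of values examined, 3 did so, and chance alone puts about 1 in 20 groups past this limit. The mean level of the proliferation list in mutant 1 was 9.0809, with 8.38, 8.39 and 8.50 in the other challenged mutants. The mean level of the lymph node stroma and follicle list in mutant 4 was 10.465, with 8.08, 8.23 and 8.46 in the other challenged mutants. Ifit2 probe ILMN_2981169 read 5.9787 in mutant 4, with 5.05, 5.17 and 5.20 in the other challenged mutants, and was not detected there either.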

How the results depend on the processing

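Against 25 called probes (4 higher, 21 lower in mutants), one challenged array left out gave 7 to 192 (1 to 36 higher, 6 to 156 lower). The total was 73 with median scaling (1 higher, 72 lower), 12 with cyclic loess (2 and 10), 7 with the second deposited table (1 and 6), 15 with no filter (12 lower) and 8 with array weights (1 and 7). It was 2 with only the 8 challenged arrays (0 and 2, with 1055 probes at an unadjusted limma p under 0.05) and 7 with mean signal as a covariate (1 and 6). With tissue levels as covariates it was 49 for exocrine pancreas (9 and 40), 109 for skeletal muscle (18 and 91), 51 for squamous epithelium (9 and 42), 6 for thymus (1 and 5) and, added after seeing the data, 2 for fat (0 and 2). Higher calls numbered 8 without background correction and 8 with a normexp offset of 50. With 3 doubted arrays left out together (mutants 1 and 4 and wild type 4), 34 were called, 15 of them shared with the main fit. For the interaction, cyclic loess called 1. With the replicate number as a block 0 probes passed (0 higher, 0 lower, 869 at an unadjusted limma p under 0.05). Ifit2 then gave -2.09 and -2.59, each with a limma adjusted p of 0.258. Same-numbered arrays correlated at -0.0144 to 0.331 in their deviations, and differently numbered arrays at -0.449 to 0.355. Exocrine pancreas genes were high in replicates 1 and 2 and low in replicates 3 and 4 of both genotypes. Whether the replicate numbers mark something shared between the genotypes was not tested. Ifit2 probe ILMN_2981169 differed by -4.12 in the second deposited table (limma adjusted p = 0.0651) and probe ILMN_2981167 by -6.72 (limma adjusted p = 2.0e-10). Values under 1 in that table were set to 1 before taking log2, which bears on the size of these differences. The causes were not tested. No direction reversed.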

Other observations

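On chromosome 19, which carries Ifit2, 361 genes were tested (3.54% of all), a split chosen after the data were seen. At an unadjusted limma p under 0.01, 23 of them (6.37%) differed between the genotypes with challenge, against 4.54% of genes on the other chromosomes. Without challenge it was 9 of them (2.49%), against 0.508% elsewhere. Of 74 genes with an unadjusted p under 0.05 in both states 65 had the same sign in both. Of these 65, 6 lie on chromosome 19: Ifit2, Ifit3, Mfsd13a, Hps1, Btrc and Pdlim1. Hps1, a subunit of a complex that forms lysosome-related organelles, differed by -0.77 with challenge and -1.09 without, and Pdlim1 by -0.47 and -0.71. Both comparisons are between mutants and wild types on separate mice.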
